A study of Homo sapiens with 6 samples.

Results

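The scavenger receptor genes OLR1, SCARA3, SCARB1, SCARB2 and CD68 were followed in RNA sequencing of a human colorectal cancer line in which ARMC5 had been knocked down. They were taken by name and are 5 of the 35810 genes with a listed transcript and 5 of the 13737 genes that had at least 10 reads in at least 3 libraries and were tested. OLR1 and SCARA3 were also labelled by the study on a plot of these same libraries, so their tests are not independent evidence of a change. All 5 members passed the read filter.

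The study examined how a Cullin 3 ubiquitin ligase with ARMC5 as its substrate adaptor recognizes RNA polymerase II, and these libraries served it to measure how far ARMC5 was depleted and which genes differed after depletion. Its cells were DLD-1, an established colorectal adenocarcinoma line, with SPT5 fused to an auxin-inducible degron (genotype SPT5-AID) in both groups. One group carried a short hairpin RNA against ARMC5 (shARMC5) and the other a nontargeting hairpin (shNT), with 3 libraries of polyadenylated RNA in each. The methods describe lentiviral delivery with puromycin selection and list more than 1 ARMC5 hairpin without saying which was sequenced here, the labels name no auxin, and SPT5-AID is 1 engineered line.

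Scavenger receptors are membrane proteins grouped by their shared ability to bind modified lipoproteins and other polyanionic ligands, not by common descent. OLR1 encodes LOX-1, a C-type lectin-like receptor for oxidized low-density lipoprotein, best known from endothelium. SCARA3 encodes a class A member of the endoplasmic reticulum and Golgi linked to protection from oxidative stress. Class B holds SCARB1, which encodes SR-BI, the receptor through which cells take up cholesteryl ester from high-density lipoprotein, and SCARB2, which encodes LIMP-2, an abundant protein of the lysosomal membrane. CD68 encodes a heavily glycosylated late endosomal protein of class D, a common marker of macrophages.

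Alternative exons change the proteins that OLR1, SCARB1 and CD68 encode. The stretches below are the coding bases that tell apart the transcripts compared later, read from the GRCh38 genome and the GENCODE 44 annotation and written 5′ to 3′ on the gene's strand. The first is exon 5 of OLR1-201 (chr12:10160347-10160462, minus strand, 116 bases), which lies in the coding part of the lectin-like domain and is missing from OLR1-211, and its capitals mark 3 in-frame tryptophan codons. Its length is not a multiple of 3, so the frame changes where it is skipped. The next is exon 12 of SCARB1-201 (chr12:124782683-124782811, minus strand, 129 bases), which holds the last coding bases of the SR-BI form and is missing from SCARB1-202, the transcript of the SR-BII form with another C terminus, and its capitals mark the stop codon. The last is a part of exon 2 of CD68-201 (chr17:7579810-7579890, plus strand, 81 bases) that is missing from CD68-202, and its capitals mark 6 in-frame threonine codons.
OLR1-201 exon 5: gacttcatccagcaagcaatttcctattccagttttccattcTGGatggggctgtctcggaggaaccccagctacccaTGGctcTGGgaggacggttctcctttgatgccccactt
SCARB1-201 exon 12: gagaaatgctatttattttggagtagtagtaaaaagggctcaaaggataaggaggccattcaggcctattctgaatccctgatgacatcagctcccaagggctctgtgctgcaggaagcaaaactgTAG
CD68-201 exon 2, part: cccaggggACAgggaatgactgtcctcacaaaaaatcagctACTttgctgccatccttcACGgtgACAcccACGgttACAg

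The libraries held between 26201112 and 40866478 estimated reads. ARMC5 itself was at 10.8, 12 and 12.9 CPM (reads per 1000000 on genes, scaled by edgeR's TMM factors) in the shARMC5 libraries and at 23.0, 25.9 and 26.7 in the shNT libraries, a ratio of 0.471 (log2 fold change -1.09, SE 0.08, edgeR adjusted p = 5.32e-07). Of all genes tested, 1064 were called at an adjusted p under 0.1 by edgeR's quasi-likelihood test, a share of 7.75%, with 610 higher and 454 lower in shARMC5. The typical called gene moved little, with a median absolute log2 fold change of 0.20. The label of the line was checked against markers of colorectal epithelium, of which EPCAM (982 to 1051 TPM, the length-corrected unit of the files), CDX2 (111 to 128 TPM) and KRT8 (3060 to 3649 TPM) were high in every library. Of the 9 listed markers 8 had a listed transcript, of which VIL1 was low (2.95 to 9.91 TPM) and LGALS4 had too few reads to be tested.

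OLR1, SCARA3 and SCARB1 were higher in shARMC5, by 34.4%, 33.4% and 15.1% in mean CPM. SCARB2 was well covered and did not pass the test, and CD68, a marker of macrophages, had few reads and did not pass it either. In counts, 3 of the 5 members were called higher and 0 lower, and 2 were not called, against 4.44% of all tested genes called higher and 3.3% called lower. For the same 3 members the CPM of the groups did not overlap, a pattern found in 23.4% of all tested genes.

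**Figure D1:**
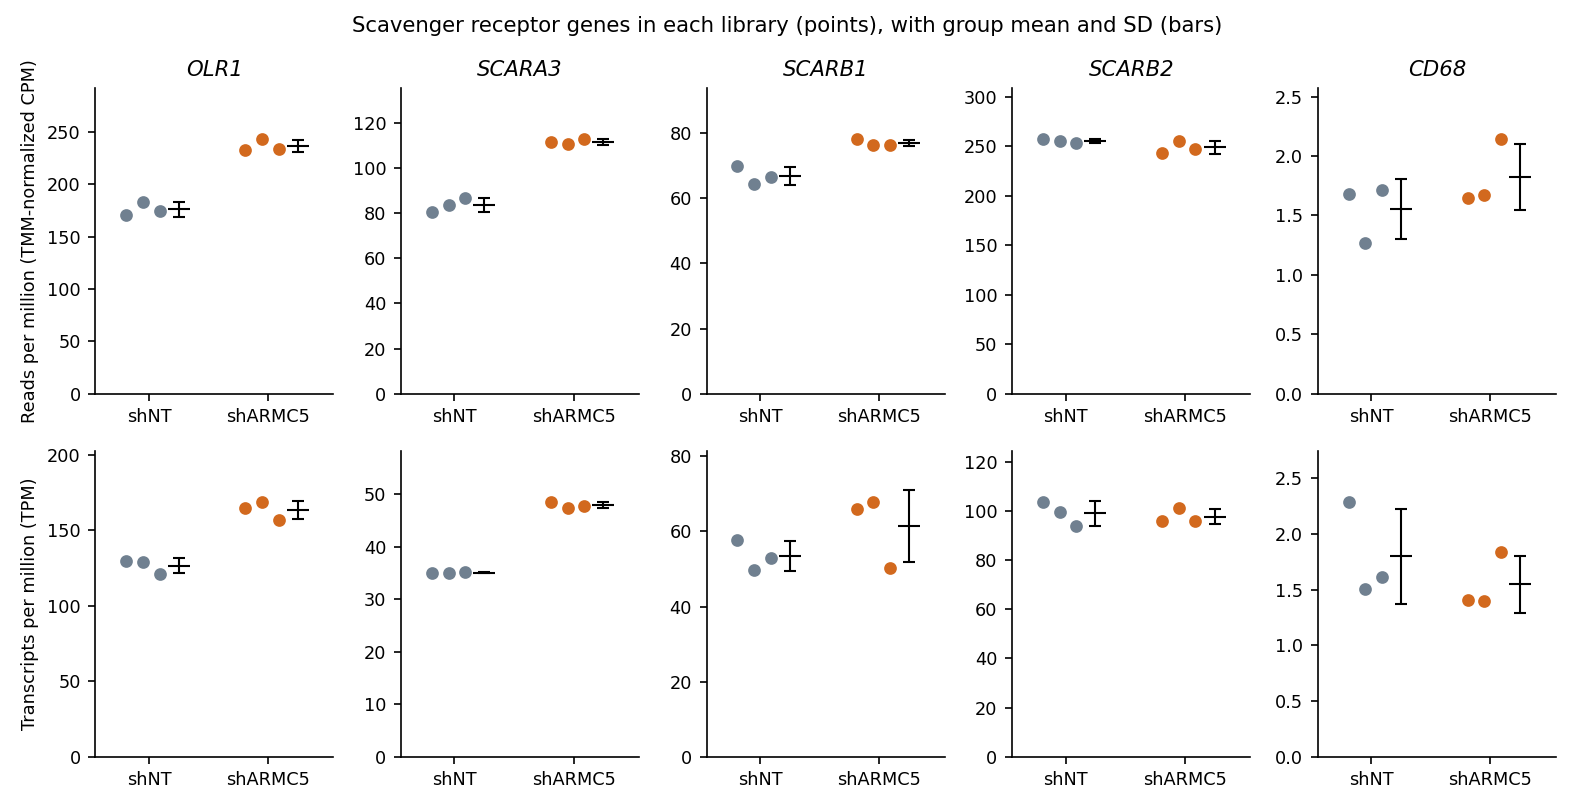
TMM-normalized CPM (upper row) and TPM (lower row) of each scavenger receptor gene, on linear axes that start at 0. Each point is 1 library (3 shNT, 3 shARMC5) and the bar beside each group is its mean ± SD. OLR1 and SCARA3 separated the groups on both scales, whereas SCARB1 separated them in CPM only (76.3 to 78 against 64.3 to 69.7).

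OLR1 (ENSG00000173391, chr12:10158301-10172138, minus strand) had 232.9, 242.9 and 233.2 CPM in the shARMC5 libraries and 170.2, 183.4 and 174.0 CPM in the shNT libraries. The lowest shARMC5 library lay well above the highest shNT library. The group means were 236 ± 5.71 and 176 ± 6.80 CPM (SD, n = 3 each), a ratio of 1.34, and each library held 4875 to 9580 OLR1 reads. By edgeR the log2 fold change was 0.43 (SE 0.03, 95% interval 0.36 to 0.49, adjusted p = 5.32e-07), the 10th smallest p among all genes tested. Of the 610 genes called higher, 60 rose by a larger fold than OLR1. The two-sided exact permutation test over the 3 and 3 libraries gave p = 0.1, the smallest p that this design allows. Per transcript length, OLR1 was at 163 ± 5.96 TPM in shARMC5 and 127 ± 4.98 TPM in shNT, again without overlap, as for SCARA3, so that 2 of the 5 members separated the groups in TPM against 16.3% of all tested genes.

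SCARA3 (ENSG00000168077, chr8:27633868-27676776, plus strand) had 111.2, 110.3 and 112.7 CPM in shARMC5 and 80.4, 83.4 and 86.7 CPM in shNT. The shARMC5 libraries were almost level with each other and all lay above the shNT libraries. The means were 111 ± 1.18 and 83.5 ± 3.15 CPM (SD, n = 3 each), a ratio of 1.33 on 2430 to 4351 reads per library. The log2 fold change was 0.42 (SE 0.04, 95% interval 0.34 to 0.49, edgeR adjusted p = 2.69e-06), 14th by p among all genes tested. In TPM the groups did not overlap either, at 48.5, 47.3 and 47.7 in shARMC5 and 35, 35.1 and 35.2 in shNT. The fold was thus of the same size as that of OLR1, with intervals that overlapped almost entirely, although the genes lie on different chromosomes and OLR1 was the more abundant.

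SCARB1 (ENSG00000073060, chr12:124776856-124882668, minus strand) changed less. Its libraries had 78, 76.3 and 76.3 CPM in shARMC5 and 69.7, 64.3 and 66.3 CPM in shNT, with means of 76.9 ± 0.949 and 66.8 ± 2.72 (SD, n = 3 each). The ratio of 1.15 corresponded to a log2 fold change of 0.20 (SE 0.04, 95% interval 0.12 to 0.29, edgeR adjusted p = 0.00518), and 246 genes called higher rose by a larger fold. The call depended on how transcript length was handled. In TPM the shARMC5 libraries were at 66.0, 67.8 and 50.3 and the shNT libraries at 57.8, 49.7 and 52.9, so that the third shARMC5 library fell inside the shNT range (exact permutation p = 0.3). With an offset for the average length of the transcripts present, the log2 fold change stayed at 0.22 but the edgeR adjusted p was 0.430, a setting under which 1.71% of all genes were called.

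SCARB2 (ENSG00000138760, chr4:76158737-76234536, minus strand) was at 243, 255 and 247 CPM in shARMC5 and at 257, 255 and 253 CPM in shNT. The groups overlapped, and the means of 249 ± 6.20 and 255 ± 1.92 CPM (SD, n = 3 each) stood in a ratio of 0.975. On the log2 scale the difference was -0.04 (SE 0.03, edgeR adjusted p = 0.530). With 6239 to 10070 reads per library, the 95% interval of the fold ran from 0.937 to 1.02, so a rise of the size seen for OLR1 or SCARA3 lay outside it. Values per length gave the same picture, with 97.7 ± 3.02 TPM in shARMC5 and 99.0 ± 4.93 TPM in shNT.

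CD68 (ENSG00000129226, chr17:7579491-7582111, plus strand) was barely transcribed, with 41 to 66 reads per library. It had 1.65, 1.67 and 2.14 CPM in shARMC5 and 1.68, 1.26 and 1.71 CPM in shNT, and the groups overlapped. The log2 fold change was 0.23 (SE 0.24, edgeR adjusted p = 0.694) and its 95% interval allowed folds from 0.817 to 1.67, wide enough to hold the rise of OLR1 as well as no change. The value turned to -0.20 (edgeR adjusted p = 0.822) with the length offset. The lengths that enter that fit are Salmon's effective lengths, averaged by TPM over the transcripts assigned to CD68. Their mean was 1646 bases in shARMC5 and 1237 in shNT. The gene also shares 1765 of its 2163 annotated exon bases with a long noncoding RNA gene on the same strand, and reads of these bases cannot be assigned to either with certainty.

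**Figure D2:**
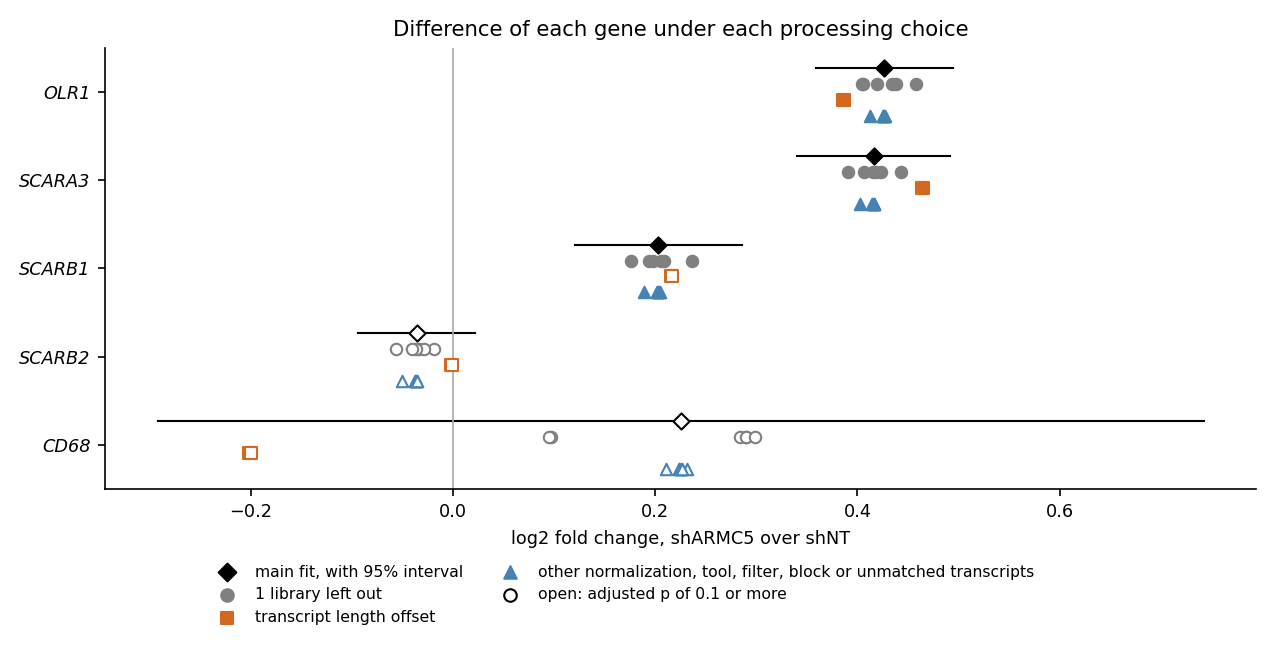
Log2 fold change (shARMC5 over shNT) of each gene in the main edgeR fit with its 95% interval (black) and under 14 other processing choices, filled where the adjusted p was under 0.1. OLR1 and SCARA3 stayed between 0.39 and 0.46 and filled throughout, SCARB1 was open with the transcript length offset, and CD68 crossed 0.

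Levels were compared between the genes per length, in TPM. In both groups the order was OLR1, SCARB2, SCARB1, SCARA3 and CD68, and within each group every library of a gene lay above every library of the next gene. OLR1 stood above 92.4% of all tested genes in mean TPM, SCARB2 above 88.1%, SCARB1 above 79.3%, SCARA3 above 72.3% and CD68 above 17.0%. Thus the receptor best known from endothelium was the most abundant scavenger receptor of the set in this epithelial line. Markers of the cell types in which OLR1 and CD68 are usually studied were nearly absent. The 6 endothelial markers summed to 0.318 to 0.458 TPM in shARMC5 and 0.241 to 0.354 TPM in shNT, with the endothelial cadherin CDH5 and the receptor KDR at 0 reads in all libraries. The 12 macrophage markers summed to 2.43 to 5.11 TPM in shARMC5 and 3.17 to 8.48 TPM in shNT, with AIF1, TYROBP, C1QA and C1QB at 0 reads. Of these 2 lists 4 genes had enough reads to be tested, and 0 were called by edgeR or DESeq2 (against 7.75% of all genes by edgeR) and 0 had an unadjusted p under 0.05 (against 18.1%).

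Of 7 epithelial markers tested, 4 were called, against 7.75% of all genes, and the median log2 fold change was 0.03. The keratins KRT18 (log2 fold change 0.25), KRT8 (0.18) and KRT19 (0.11) were called higher and VIL1, the microvillus protein villin, was called lower (-1.30), genes named here after their values were seen, and 3 were not called. KRT19 lost its call when edgeR took an offset for mean transcript length (adjusted p = 0.124). The summed TPM of the 8 epithelial markers with a listed transcript ran from 8532 to 8831 in shARMC5 and from 7535 to 8053 in shNT. The part of these differences in the scavenger receptor values was not tested. In bulk RNA, more cells with a transcript and more of it per cell cannot be told apart.

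The files list single transcripts, to which the authors' quantification divided the reads that several transcripts share. The 5 genes have 55 listed transcripts, of which 45 had reads and 28 were tested. By edgeR 0 of the 28 were called, as were only 4 of all 49809 transcripts tested (0.00803%). The biological coefficient of variation was 0.657 for transcripts and 0.0643 for gene sums, so transcript estimates varied far more between libraries. Without adjustment 5 of the 28 had p under 0.05, against 4.93% of all transcripts. Transcript values are therefore given as descriptions.

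OLR1 was carried almost wholly by OLR1-201, the full-length form with 819 coding bases in 6 exons. OLR1-201 was at 144, 150 and 140 TPM in shARMC5 and at 107, 113 and 105 TPM in shNT, with no overlap between the groups (log2 fold change 0.44, SE 0.05, edgeR adjusted p = 0.182). Its share of OLR1 TPM was 88.5 ± 1.14% and 85.6 ± 2.65% (SD, n = 3 each), with overlapping groups. OLR1-211, which skips the exon 5 printed above as does the splice form known as LOXIN, had 567 coding bases and 45 to 105 reads per library. It was at 3.87, 2.99 and 4.85 TPM in shARMC5 and at 5.43, 3.06 and 2.55 TPM in shNT, with no separation of the groups (log2 fold change 0.13, SE 0.38). OLR1-211 made up 2.61% of OLR1 TPM over the 6 libraries.

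SCARA3 has 2 listed transcripts that end in different last exons. SCARA3-201, with 1818 coding bases, ends in a last exon of 2119 bases (chr8:27670900-27673018), and SCARA3-202, with 1398 coding bases, in one of 208 bases further downstream (chr8:27676569-27676776). SCARA3-201 was at 38.3 ± 0.375 TPM in shARMC5 and 30.1 ± 0.498 TPM in shNT (SD, n = 3 each; log2 fold change 0.37, SE 0.04, edgeR adjusted p = 0.182). The shorter SCARA3-202 was at 10.3, 8.60 and 9.73 TPM in shARMC5 and at 4.90, 5.49 and 4.57 TPM in shNT, again without overlap, on 158 to 409 reads per library (log2 fold change 0.95, SE 0.14, edgeR adjusted p = 0.251). The share of SCARA3-201 was accordingly 80.1 ± 1.58% in shARMC5 and 85.8 ± 1.34% in shNT, without overlap (exact permutation p = 0.1, the smallest possible, and 0.5 after Benjamini-Hochberg adjustment over the 5 leading transcripts). The difference of -5.71 points in TPM share was smaller, at -3.23 points, when shares were taken from reads.

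SCARB2, which was not called as a gene, had 1 main transcript with values that separated the groups. SCARB2-207 begins at its own first exon (chr4:76234303-76234536), upstream of the first exon that the other main forms share, and had 536, 714 and 562 reads in shARMC5 and 1105, 1207 and 832 in shNT. The groups did not overlap, although the adjusted p missed the threshold (log2 fold change -0.79, SE 0.13, edgeR adjusted p = 0.282). It made up 6.84 ± 0.898% and 11.8 ± 1.14% of SCARB2 TPM (SD, n = 3 each). The leading form SCARB2-201 was at 59.4, 56.8 and 56.8 TPM in shARMC5 and at 58.8, 53.3 and 55.0 TPM in shNT, with overlapping groups. The FAM47E gene overlaps this end of SCARB2 on the opposite strand without sharing exon bases, and had 164 to 243 reads per library. Of the 28 tested member transcripts, 4 had TPM shares that did not overlap between groups, namely both of SCARA3, whose shares sum to the whole and so count as 1 separation, and 2 of SCARB2, against 10% of the 48313 tested transcripts of genes with several.

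**Figure D3:**
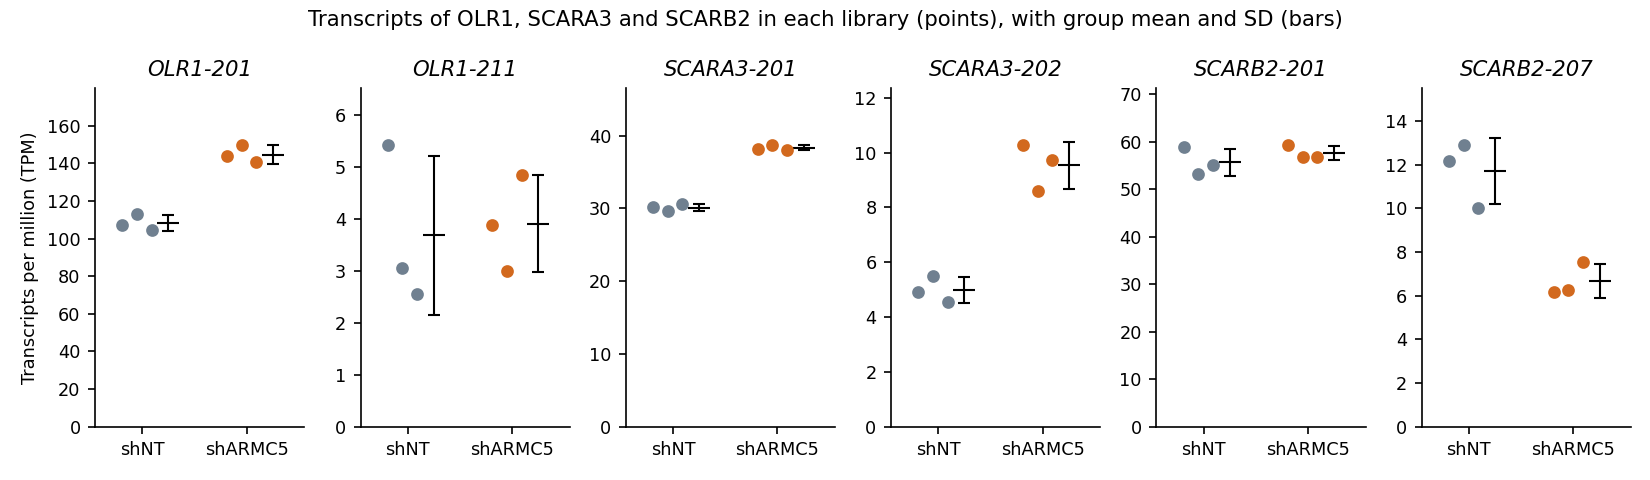
TPM of OLR1-201 and OLR1-211, SCARA3-201 and SCARA3-202, and SCARB2-201 and SCARB2-207 in each library (points), with group mean ± SD (bars), on linear axes that start at 0. OLR1-201 and both SCARA3 transcripts were higher in all 3 shARMC5 libraries, SCARB2-207 was lower in all 3, and OLR1-211 and SCARB2-201 overlapped.

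SCARB1 reads were spread over 6 transcripts with at least 5% of its TPM each, of which none separated the groups in its share. The leading one, SCARB1-211, held 23.6 ± 1.40% in shARMC5 and 26.6 ± 4.09% in shNT (SD, n = 3 each), followed by SCARB1-209 (22.0% over all libraries), SCARB1-201 (17.6%), SCARB1-203 (17.0%), SCARB1-206 (6.82%) and SCARB1-210 (5.80%). SCARB1-209 and SCARB1-206 have no annotated coding sequence. The third shARMC5 library, which lay apart in gene TPM, had only 97 reads on the short SCARB1-209 (851 bases) against 258 and 329 in the other shARMC5 libraries, and 0 on SCARB1-210 (581 bases) against 39 and 64, although the second shNT library also had 0 on SCARB1-210 against 35 and 49 in the other shNT libraries. SCARB1-202, which lacks the exon 12 printed above, had 15 to 129 reads per library and 2.14% of SCARB1 TPM. CD68-201 had 31, 0 and 46 reads in the shARMC5 libraries and 44, 35 and 41 in the shNT libraries. CD68-202, which lacks the threonine-rich stretch printed above, had 19, 66 and 6 reads in shARMC5 and 0, 0 and 3 in shNT, too few to be tested. In the second shARMC5 library all CD68 reads were thus given to CD68-202, although the sum for the gene was like that of the other libraries.

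Of the genes next to OLR1, SCARA3, SCARB2 and CD68, 1 of 8 was called, against 7.75% of all genes. Beside OLR1, TMEM52B, which overlaps it on the opposite strand with 0 shared exon bases, had a log2 fold change of 0.09 (SE 0.03, edgeR adjusted p = 0.113), and CLEC7A, the beta-glucan receptor dectin-1, had 7 to 20 reads per library and -0.95 (SE 0.46, adjusted p = 0.290). Beside SCARA3, the chaperone gene CLU was called higher by a small fold (0.11, SE 0.03, edgeR adjusted p = 0.0267) and CCDC25 was not called (0.06). CLU was no longer called without the second shARMC5 library (adjusted p = 0.139) or without the first (0.111) or the third (0.122) shNT library, nor with the transcript length offset in edgeR (0.192). NUP54 and FAM47E beside SCARB2 (0.04 and -0.07) and EIF4A1 and MPDU1 beside CD68 (0.07 and 0.11) were not called. EIF4A1 was called in 4 of 15 alternatives (adjusted p down to 0.0222), MPDU1, which lay just past the threshold (adjusted p = 0.1002), in 3 (down to 0.0633) and TMEM52B in 1 (0.0477).

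Genes were ranked by how closely their log2 CPM followed each member over the 6 libraries, among the 10368 others whose mean reached 5 CPM, as a description. For OLR1 these were the chemokine CXCL5 (Pearson r = 0.999), the matricellular protein CCN1 (0.997) and the complement regulator CD55 (0.996), with log2 fold changes of 0.31, 0.64 and 0.24. For SCARA3 they were TMEM106C (0.995), the lysosomal fucosidase FUCA1 (0.994) and the ephrin receptor EPHA2 (0.994), at 0.15, 0.24 and 0.34. Each of these was called higher, TMEM106C not with the transcript length offset (edgeR adjusted p = 0.290). SCARB1 was followed most closely by RAB3B (0.998, called higher at 0.23), SGO1 (0.994) and DDX3X (0.993), SCARB2 by TRIT1 (0.985), FUT8 (0.983) and PI4K2B (0.980), and CD68, compared with 10369 genes, by MDM1 (0.997), SLC49A4 (0.979) and USE1 (0.979), of which the last 8 were not called. The 6 points of each r share the libraries and the group difference.

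The other scavenger receptors were mostly silent. Of 17 listed, 6 had enough reads to be tested and 12 stayed under 1 TPM in every library, among them the sinusoidal endothelial receptor STAB2 and SCARF1 at 0 reads and the fatty acid receptor CD36 at 2 to 8 reads. CXCL16, which encodes a membrane-bound chemokine that also binds oxidized lipoprotein, was the 1 called (against 7.75% of all genes), at 52.2, 50.8 and 51.1 CPM in shARMC5 and 44.9, 44.8 and 43.0 CPM in shNT (log2 fold change 0.22, SE 0.04, edgeR adjusted p = 0.00795). Like SCARB1 it lost the call with the transcript length offset. The list's median log2 fold change was -0.19, against -0.0014 over all genes. Its tested genes include SCARF2 at 5 to 13 reads per library and MEGF10 at 5 to 24. Of 13 C-type lectins of the cluster that holds OLR1, 3 were tested (KLRD1, CLEC7A and CLEC2D), 0 were called by edgeR or DESeq2, against the same 7.75%, and 1 had an unadjusted p under 0.05, against 18.1% of all genes.

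Of the receptors and enzymes that handle the same ligands, most were not called. In the family of low-density lipoprotein (LDL) receptor relatives, LRP10 was called higher (148 ± 2.29 against 138 ± 1.42 CPM, SD, n = 3 each, log2 fold change 0.10, edgeR adjusted p = 0.0632), LRP11 was called lower (108 ± 1.76 against 119 ± 2.33 CPM, SD, n = 3 each, -0.14, adjusted p = 0.0150) and 8 others were tested and not called, against 4.44% of all tested genes called higher and 3.3% called lower. Among 15 tested genes of lipoprotein and cholesterol traffic, the lysosomal cholesterol carrier NPC2 (0.20, edgeR adjusted p = 0.00141) and the cholesterol esterifying enzyme SOAT1 (0.17, adjusted p = 0.0545) were called higher. The cholesterol exporter ABCG1 was called lower, from 1.37 ± 0.233 to 0.676 ± 0.0834 CPM (SD, n = 3 each) (-1.01, SE 0.30, adjusted p = 0.0633), on 17 to 50 reads per library, and 12 genes were not called. The calls of LRP10, SOAT1 and ABCG1 were lost in most fits that left out 1 library, with adjusted p up to 0.188, 0.163 and 0.191, and LRP11 lost its call with the transcript length offset (0.284), whereas NPC2 was called under every alternative tried. Partners of SR-BI were at or near 0, with its scaffold PDZK1 at 2 to 12 reads and APOA1, the main protein of high-density lipoprotein, at 0 or 1.

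Of 30 tested genes of the lysosome, the compartment of LIMP-2 and CD68, 23 were not called, 7 were called higher (23.3%, against 4.44% of all genes) and 0 lower. The median log2 fold change was 0.07, against -0.0014 over all genes, and 26 of the 30 values were positive, most of them not called. The acid sphingomyelinase SMPD1 was foremost, at 47, 47.7 and 45 CPM in shARMC5 and 33.2, 35.8 and 37.4 CPM in shNT (log2 fold change 0.40, SE 0.05, edgeR adjusted p = 0.000309), a fold close to those of OLR1 and SCARA3. The membrane protein LAMP1 (0.16, adjusted p = 0.00170) and the proteases CTSB (0.13, adjusted p = 0.0125) and CTSL (0.19, adjusted p = 0.0287) followed. The count of 7 fell to 2 with the transcript length offset, to 3 without the second shARMC5 library or without the first shNT library, and to 4 without the third shNT library. Of the genes named, CTSL was no longer called without those libraries (adjusted p up to 0.142) or with the length offset in edgeR (0.283), CTSB fell to 0.06 with that offset and was not called (0.568), and SMPD1 and LAMP1 were called under every alternative tried.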

How the data were processed

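Polyadenylated RNA of SPT5-AID DLD-1 cells was sequenced in 3 shARMC5 and 3 shNT libraries, which the study describes as biological replicates. The submitters' processing notes name cutadapt 4.2, Salmon 1.9.0 and hg38. The transcript set is not given in the sources used here, and the library kit named in the labels keeps no record of strand. The authors deposited, for each of 177456 transcripts, an estimated count of reads and TPM as Salmon gives them, without normalization between libraries. Identifiers were matched without version to GENCODE 44 (GRCh38), which placed 165533 transcripts in 35810 genes, and the 11923 unmatched, with 2.96% to 3.04% of reads, were left out.

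Each gene's estimated counts were added up and rounded. The quasi-likelihood test of edgeR 4.0.16 (R 4.3.3) was fitted robustly, with TMM factors and without covariates, to genes that reached 10 counts in 3 or more libraries, with Benjamini-Hochberg adjustment over all genes and calls at an adjusted p under 0.1, the filter and threshold of the study. The study's own tool, DESeq2, was run as an alternative (version 1.42.0). Transcripts were tested in the same way. Levels are TMM-normalized CPM, and TPM was summed over a gene's transcripts. Depth was 26201112 to 40866478 reads, and genes with few reads carry the larger counting error. The procedure was tested on simulated data, where the share of false calls ran above the nominal share for both edgeR and DESeq2.

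Alternatives were DESeq2's size factors, library size only, a transcript length offset, DESeq2 without and with that offset, no read filter, a replicate term, a stricter threshold, unmatched transcripts added to the gene before them, and each library left out. The length offset was built from Salmon's effective lengths, averaged by TPM over a gene's transcripts. Named genes were the members, ARMC5, up to 4 called genes each way per list, the nearest tested neighbours, the 3 most alike genes by Pearson r and transcripts with at least 5% of a gene's TPM. OLR1-211, SCARB1-202 and CD68-202 were added because they lack a printed stretch, and other list genes are named for their reads or roles after their values were seen. The neighbours of SCARB1 and some list genes are not reported here. The members and lists were chosen with earlier results of these data known. The alternatives for list counts and for genes that are no members were added after the data were seen.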

Additional observations from a re-analysis of the deposited data

How the results depend on the processing

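OLR1, SCARA3, SCARB2 and ARMC5 kept their direction and their side of the threshold in all 15 alternatives. The order of the members by TPM was also kept. Leaving out 1 library could not change it, since within each group the genes did not overlap. With the transcript length offset, SCARB1 was no longer called in edgeR (0.216, adjusted p = 0.430) or DESeq2 (0.215, adjusted p = 0.311), and CD68 reversed in both (-0.200 and -0.202), as did MDM1 (-0.0618 and -0.0628). The count of 1064 genes called was 235 and 568 with that offset in edgeR and DESeq2, 676 at an adjusted p under 0.05, 1537 without the read filter, and 536 (without shNT replicate 1) to 1085 with 1 library left out. It was 953 with library size only, which turned the split from 610 higher and 454 lower to 458 and 495. Transcripts called numbered 11 without the filter and 0 to 2 with 1 library left out, against 4.

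Same-numbered libraries of the groups did not deviate together (correlations -0.019, -0.0093 and -0.036, and no library correlated best with its own number). With 3 libraries per group, these correlations cannot settle whether same-numbered libraries were prepared together. A replicate block gave 1766 genes and 0 transcripts, raised the lysosomal genes called to 10 and changed no call of a member.

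With 1 library left out, log2 fold changes of transcripts ranged over both signs, from -1.34 to 0.13 for CD68-201, -0.0604 to 0.166 for SCARB1-211 (-0.0181 without shARMC5 replicate 2), -0.00019 to 0.446 for SCARB1-206, -0.526 to 0.870 for SCARB1-210 (-0.171 and -0.513 in other fits), -0.355 to 0.0580 for SCARB2-215 (0.0018 in another) and -0.492 to 0.842 for SCARB2-212 (-0.346 in another). USE1 ranged from -0.0014 to 0.0319. The difference in the leading transcript's share ranged from -32.8 to 8.78 points for CD68. Among the other values, 57 lost their call, 8 gained one and 51 counts moved by over 1.5 times, against 872 that kept theirs. The causes were not tested. At 41 to 66 reads per library, CD68 carries the largest counting error of the members.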

Other observations

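Genes that handle peroxides and other oxidants, the setting in which OLR1 ligands form and to which SCARA3 has been linked, were abundant. Of 21 listed, 20 were tested, 2 were called higher and 1 lower (15%, against 7.75% of all genes), 9 had an unadjusted p under 0.05 (against 18.1% of all genes), and the median log2 fold change was 0.03. The peroxiredoxin PRDX6 was at 320, 333 and 326 CPM in shARMC5 and at 282, 302 and 294 CPM in shNT (log2 fold change 0.16, SE 0.03, edgeR adjusted p = 0.00410). SRXN1, a target of the antioxidant regulator NFE2L2 that encodes the sulfiredoxin that repairs overoxidized peroxiredoxins, was at 79.6, 84.0 and 76.7 CPM in shARMC5 and at 70.7, 71.6 and 70.6 CPM in shNT (0.18, SE 0.04, edgeR adjusted p = 0.0150), and was no longer called without the second shARMC5 library (adjusted p = 0.105). The mitochondrial superoxide dismutase SOD2 was lower (-0.11, edgeR adjusted p = 0.0711), a call lost in 5 of the 6 fits that left out 1 library. With the transcript length offset in edgeR 0 of the list were called. NFE2L2 itself (-0.01, SE 0.03, edgeR adjusted p = 0.937) and further targets of it, HMOX1 (0.02, adjusted p = 0.947) and NQO1 (0.05, adjusted p = 0.402), were not called.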
